A study of Sus scrofa with 12 samples.

Results

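Axon guidance ligands and receptors were measured in hypothalamus of 3 germ-free (GF) pigs and 3 colonized (CG) pigs. The genes were taken by symbol from the mRNA table, as every gene named as an Eph receptor, an ephrin, a semaphorin, a plexin, neuropilin 1 or 2, ROBO1 to ROBO4, SLIT1 to SLIT3, a netrin, an UNC5 receptor or DCC. This gave 67 of the 19256 genes and 171 of the 47559 transcripts. The 67 genes comprised 14 Eph receptors, 7 ephrins, 20 semaphorins, 8 plexins, 2 neuropilins, 3 Slit ligands, 4 Robo receptors, 4 netrins and 5 genes of the UNC5 and DCC group.

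All 6 pigs were Chinese Bama piglets delivered by hysterectomy from 1 sow and kept in sterile isolators. The GF pigs had no gut microbiota, whereas the CG pigs received a fecal microbiota transplant from 1 donor pig between day 3 and day 7 of life and then carried gut bacteria. Every pig is labelled male and 45 days old. The paper gives a slightly younger age. Long RNA was sequenced from a part of each hypothalamus, 1 library per pig. Several piglets shared an isolator and the sources do not say which, so isolator and colonization cannot be told apart, and p-values measure only the spread between these pigs.

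Axon guidance molecules steer growing axons by attraction and repulsion, and in the mature brain they go on to shape synapses, spines and vessels. Slit proteins are secreted and act through Robo receptors. Netrins attract axons through DCC and repel them through UNC5 receptors. Semaphorins act through plexins, and the secreted class 3 semaphorins also need neuropilins, while ephrins are bound to the membrane and signal to Eph receptors on the neighbouring cell as well as back into their own cell.

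Levels are given in TPM, the unit of the deposited values, a relative abundance scaled to transcript length and to the library. This unit does not retain how many reads a value rests on, and depth is unknown here. The mRNA values of a library summed to 793723 to 845526 TPM. GF and CG pigs were compared with limma on log2(TPM + 1), which understates the change of low genes. All 14641 genes with at least 1 TPM in at least 3 libraries were tested, a gene was said to rise or fall at a Benjamini-Hochberg adjusted p under 0.05, and negative log2 fold changes mean lower levels in GF pigs. In bulk tissue, fewer cells of a type and less RNA per cell cannot be told apart.

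Libraries differed in tissue content within and between the groups. The 16 hypothalamic neuron genes with a row in the table (of 17 listed, among them OXT, PMCH and SST) summed to 66.12 TPM in GF replicate 1, to 1330 and 1459 TPM in the other GF libraries, and lay at 1437 to 3178 TPM in CG. OXT, whose groups overlapped, made up most of the sum in GF replicate 2 (1005.5 TPM) and GF replicate 3 (869.54 TPM). It was at 581.64 to 1835.53 TPM in CG. In GF replicate 1, 12 of the 16 were under 1 TPM, against 5 and 4 in GF replicates 2 and 3 and 0 in each CG pig, so the hypothalamic label was poorly borne out in that library. Of these 16 genes, 14 were lower in every GF pig than in every CG pig and 7 fell. Conversely, 9 genes of the thalamus summed to 933.6 TPM in GF replicate 1, 628.8 TPM in GF replicate 3 and 111.7 to 132.2 TPM elsewhere. Some blood and choroid plexus genes also differed between the groups. The globin HBB was at 420.25 to 1171.64 TPM in GF and 3.03 to 10.03 TPM in CG, and the choroid plexus gene TTR at 43.94 to 200.2 and 5.72 to 9.28 TPM. Of the same lists, HBM and CLIC6 were also higher in every GF pig, while ALAS2, AHSP, FOLR1 and KCNJ13 overlapped between the groups. Pituitary genes summed to 5345 TPM in CG replicate 3, 244.3 TPM in CG replicate 1 and at most 15.96 TPM elsewhere. The Y-linked genes ZFY and KDM5D summed to 17.18 TPM in CG replicate 1, 19.51 TPM in CG replicate 2 and no more than 0.04 TPM elsewhere, which goes against the label male there.

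Axon guidance genes were lower in GF than in CG hypothalamus where they passed the test. Of the 67 genes, 64 were tested, 7 fell, 0 rose and 57 did not pass. The genes that fell were the ligands SLIT1, SLIT2, SEMA4F and EFNB1 and the receptors PLXNA4, UNC5A and UNC5D. They made up 10.9% of the tested members, while 4.93% of all tested genes fell and 1.08% rose. Without adjustment, 23 members had p under 0.05, beside 30.9% of all tested genes, and all 23 were lower in GF pigs. With a log2 fold change of at least 1 also required, SLIT2, UNC5A and UNC5D remained called, beside 2.42% of all tested genes that fell and 0.471% that rose under that rule. EFNA4, EPHA1 and NTN5 were too low to test.

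**Figure D1:**
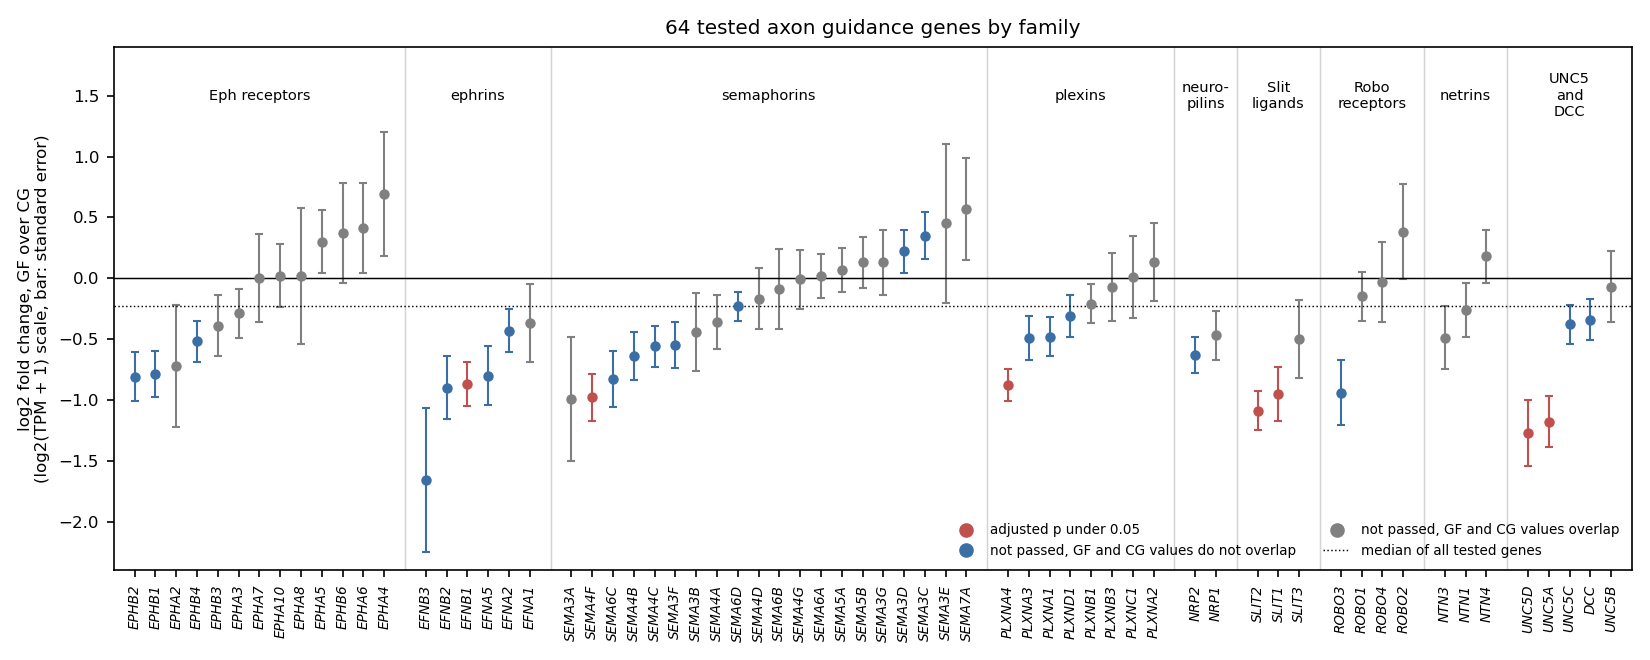
Log2 fold change of GF over CG (vertical axis, log2(TPM + 1) scale) for the 64 tested axon guidance genes, ordered by family, with the standard error as bar. Red genes passed the test, blue genes did not pass but had no overlap between GF and CG pigs, grey genes overlapped, and the dotted line is the median of all tested genes (-0.23). The 7 red points lie between -0.87 and -1.27, in the ephrins, semaphorins, plexins, Slit ligands and UNC5 receptors.

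The median log2 fold change of the 64 members was -0.35, beside -0.23 over all tested genes, and 45 members had a negative value, as had 72.7% of all tested genes. All 3 GF pigs were below all 3 CG pigs for 26 members (40.6%), and this held for 32.8% of all tested genes. The reverse order was seen for 2 members, SEMA3C and SEMA3D (3.12%, against 5.42% of all tested genes). Since most genes of these libraries had lower TPM in GF, each library was also centred on its median. The median over all tested genes then moved from -0.23 to 0.01, that of the members to -0.11, and the genes called among all tested genes went from 158 higher and 722 lower to 265 higher and 129 lower. After centring, SLIT2 and PLXNA4 still fell, and the other 5 genes kept a negative fold change without passing.

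The calls also depended on single libraries. When GF replicate 1, GF replicate 3 or any 1 of the CG replicates was left out, limma called 0 members in either direction, while 16 to 24 members had an unadjusted p under 0.05. This loss was not particular to the members. Over all 14641 tested genes, these fits called 8 to 29 lower and 14 to 26 higher in GF, against 722 and 158 with every library kept. Without GF replicate 2 the same 7 genes fell, and 3 Eph receptors rose. All 7 genes kept a negative fold change in all 13 alternative analyses. As every GF pig was below every CG pig for these genes, only the rescaled fits (centring, or mitochondrial genes out) could have changed the sign. The tissue content described above moved with these genes, since the hypothalamic neuron genes were also lower and HBB and TTR higher in GF pigs, and its part in the 7 falls was not tested. Without both GF replicate 1 and CG replicate 3, the libraries poorest in hypothalamic and richest in pituitary RNA, the 7 fold changes were -0.69 to -0.97, and limma called 0 members (21 at an unadjusted p under 0.05). Without CG replicates 1 and 2, which leaves only libraries with Y-linked genes near 0, they were -0.74 to -1.26 and limma called 0 members (16 at an unadjusted p under 0.05), with a single CG pig that was assumed to vary like the GF pigs.

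**Figure D2:**
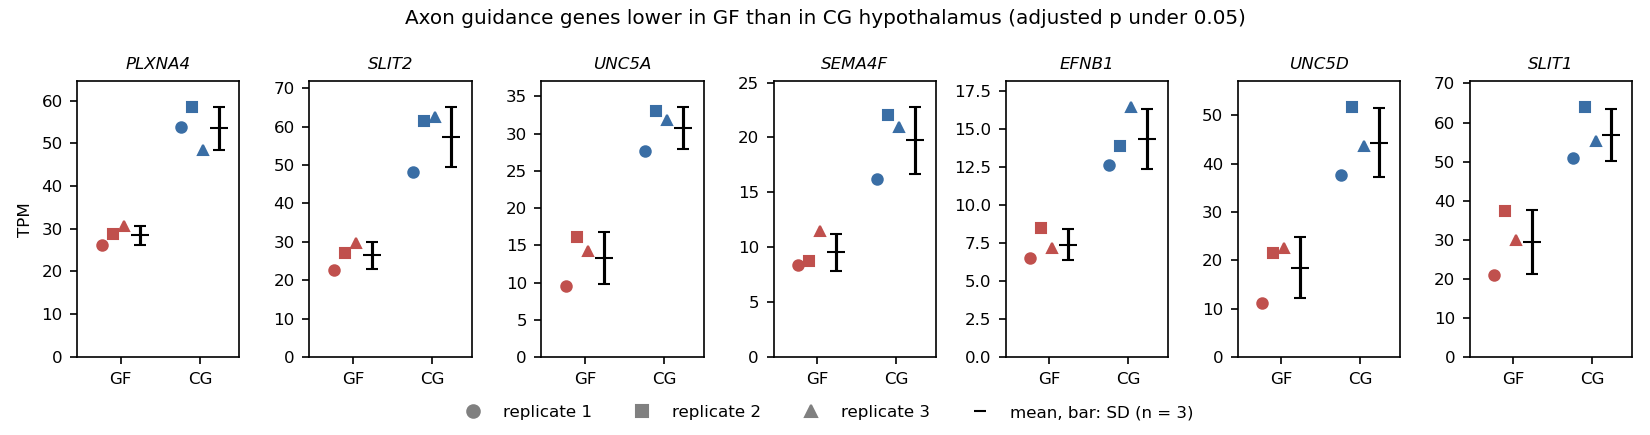
TPM (vertical axes, each from 0) of the 7 genes that fell, in each of the 3 GF (red) and 3 CG (blue) pigs, with replicate numbers as symbols and the mean with SD as black bars. In each panel the highest GF pig lies below the lowest CG pig, for SLIT2 at 29.59 against 48.20 TPM.

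Of the 3 Slit ligands, SLIT1 and SLIT2 fell and SLIT3 did not pass. SLIT2 (ENSSSCG00000008749, chromosome 8, 14758426 to 15149515 of Sscrofa11.1), a secreted repellent for axons and migrating neurons, was at 22.76, 26.97 and 29.59 TPM in the GF pigs and at 48.2, 61.32 and 62.39 TPM in the CG pigs. Its mean was 26.4 ± 3.45 TPM (SD, n = 3) in GF and 57.3 ± 7.90 TPM (SD, n = 3) in CG, 2.17 times higher in CG. Every GF pig was thus far below every CG pig, and the 3 GF values lay close together. The log2 fold change was -1.09 (SE 0.16, limma adjusted p = 0.0293), it was -0.84 after centring (adjusted p = 0.038), and with a library other than GF replicate 2 left out the adjusted p was 0.064 to 0.15.

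SLIT1 (ENSSSCG00000010512, chromosome 14, 108446003 to 108624508), the Slit ligand most restricted to the nervous system, was at 20.97, 37.35 and 30.02 TPM in GF and 50.95, 64.09 and 55.31 TPM in CG. It had the highest mean of the Slit ligands over all 6 libraries, although SLIT2 had the higher mean in CG alone, and GF replicate 1 was well below the other GF pigs. The means were 29.45 ± 8.21 and 56.8 ± 6.69 TPM (SD, n = 3 each), with a log2 fold change of -0.95 (SE 0.22, limma adjusted p = 0.0489). After centring the adjusted p was 0.11, and with a library other than GF replicate 2 left out it was 0.095 to 0.17. The third ligand, SLIT3, was at 22.47, 8.3 and 12.06 TPM in GF and at 18.58, 20.03 and 18.69 TPM in CG. Its groups overlapped through GF replicate 1, the highest library of all, and it did not pass (log2 fold change -0.50, limma adjusted p = 0.32). Together the 3 Slit genes summed to 66.2 to 72.62 TPM in GF and 117.73 to 145.44 TPM in CG.

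None of the 4 Robo receptors passed. ROBO1, the main neuronal receptor of Slit proteins and the highest of the family, was at 40.3, 33.55 and 48.16 TPM in GF and 39.66, 40.0 and 57.06 TPM in CG, and these ranges overlapped widely (log2 fold change -0.15, SE 0.20). ROBO4, the receptor of endothelial cells, also overlapped, with 12.57 TPM in CG replicate 3 and 5.07 to 7.43 TPM elsewhere. ROBO3, which controls midline crossing, was low but without overlap, at 0.34 to 1.2 TPM in GF and 1.72 to 3.23 TPM in CG (log2 fold change -0.94, SE 0.27, limma adjusted p = 0.076). The Robo sums were 55.42 to 96.83 TPM in GF and 63.77 to 97.7 TPM in CG. The difference between Slit ligands and Robo receptors was not tested.

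Among the netrin receptors, UNC5A and UNC5D fell. UNC5A (ENSSSCG00000014049, chromosome 2, 81061096 to 81126191), a receptor that turns netrin into a repellent, was at 9.48, 16.16 and 14.22 TPM in GF and 27.62, 33.03 and 31.76 TPM in CG. The means were 13.3 ± 3.44 and 30.8 ± 2.83 TPM (SD, n = 3 each), 2.32 times higher in CG. Every GF pig was far below every CG pig, and GF replicate 1 was the lowest. The log2 fold change was -1.18 (SE 0.21, limma adjusted p = 0.0348). It was -0.94 after centring (adjusted p = 0.057), and with a library other than GF replicate 2 left out the adjusted p was 0.061 to 0.15.

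UNC5D (ENSSSCG00000015830, chromosome 15, 50197131 to 50804604), which also binds the adhesion protein FLRT2, had 11.15, 21.54 and 22.57 TPM in GF and 37.58, 51.83 and 43.64 TPM in CG. This was the largest ratio among the genes that fell, at 2.41 between means of 18.4 ± 6.32 and 44.4 ± 7.15 TPM (SD, n = 3 each). GF replicate 1 stood well below the other GF pigs. The log2 fold change was -1.27 (SE 0.27, limma adjusted p = 0.0469), the centred value -1.03 (adjusted p = 0.083), and the adjusted p with a library other than GF replicate 2 left out 0.071 to 0.16.

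The remaining netrin receptors did not pass. UNC5B, an UNC5 receptor also found on vessels and the highest of the group, overlapped, with 52.4, 55.18 and 28.57 TPM in GF and 57.61, 48.56 and 34.33 TPM in CG. UNC5C had 23.69 to 34.12 TPM in GF and 35.62 to 39.77 TPM in CG, a narrow gap (log2 fold change -0.38, SE 0.16, limma adjusted p = 0.15). DCC, the attractive netrin receptor, had 20.02, 20.52 and 20.87 TPM in GF and 28.73, 29.85 and 20.88 TPM in CG. Its groups were separated by only 0.01 TPM, because CG replicate 3 was level with the GF pigs.

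None of the 3 tested netrins passed. NTN1, the classical axon attractant, was at 15.74, 21.83 and 14.98 TPM in GF and 26.33, 21.05 and 16.56 TPM in CG (log2 fold change -0.26, SE 0.22), and the ranges overlapped. NTN4, a netrin of basement membranes, had 6.71 to 11.69 TPM in GF and 8.08 to 8.71 TPM in CG, with overlap. NTN3 was low, at 0.72, 1.85 and 1.14 TPM in GF and 1.67, 2.76 and 1.91 TPM in CG, a log2 fold change of -0.49 (SE 0.26, limma adjusted p = 0.23) with overlapping groups. Netrin sums were 27.7 to 30.59 TPM in GF and 26.88 to 36.96 TPM in CG.

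Of the 20 semaphorins, SEMA4F fell, 0 rose and 19 did not pass. SEMA4F (ENSSSCG00000008262, chromosome 3, 68377669 to 68404662), a membrane semaphorin of glutamatergic synapses and of oligodendrocyte precursors, was at 8.36, 8.77 and 11.45 TPM in GF and at 16.24, 22.03 and 20.95 TPM in CG. The GF pigs were tightly grouped and below every CG pig, with means of 9.53 ± 1.68 and 19.7 ± 3.08 TPM (SD, n = 3 each), 2.07 times higher in CG. Its log2 fold change was -0.98 (SE 0.19, limma adjusted p = 0.0428), it was -0.74 after centring (adjusted p = 0.073), and with a library other than GF replicate 2 left out the adjusted p was 0.072 to 0.16. The 5 genes of the oligodendrocyte precursor list summed to 364.8 to 646.2 TPM in GF and 414.0 to 654.4 TPM in CG, with overlap. Of these 5, OLIG2 (21.82 to 54.59 TPM in GF, 67.65 to 74.55 TPM in CG) and CSPG4 (10.98 to 15.04 and 15.8 to 16.7 TPM) were lower in every GF pig. PDGFRA (60.83 to 73.24 TPM in GF, 46.91 to 69.16 TPM in CG), OLIG1 and GPR17 overlapped. The part of precursor content in the SEMA4F values was not tested.

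Other class 4 semaphorins had no overlap but missed the threshold. SEMA4B was at 10.01 to 16.38 TPM in GF and 19.19 to 22.98 TPM in CG (log2 fold change -0.64, limma adjusted p = 0.088). SEMA4C, a ligand of plexin-B2, was at 16.4 to 20.24 TPM in GF and 22.28 to 31.48 TPM in CG (log2 fold change -0.56, limma adjusted p = 0.082). All 6 class 4 genes had a negative fold change, with a median of -0.46, beside 72.7% of all tested genes and a median of -0.23. SEMA4G, at -0.01, turned sign in 5 of 13 alternatives and SEMA4D in 3 of 13. The highest of them and of all semaphorins was SEMA4D, a ligand of plexin-B1 that oligodendrocytes make, at 111.21, 153.17 and 77.1 TPM in GF and 141.27, 129.03 and 102.17 TPM in CG. Its groups overlapped fully, and GF replicate 2 was the highest library. The oligodendrocyte genes, 6 of them with a row in the table, summed to 12658, 18328 and 7888 TPM in GF and 6304 to 9094 TPM in CG, and PLXNB3, a plexin of oligodendrocytes, was at 28.05, 39.98 and 17.71 TPM in GF and 24.34 to 33.39 TPM in CG. In all these readouts GF replicate 2 was the highest library and GF replicate 3 lower than the other GF pigs, and the part of oligodendrocyte content in the SEMA4D values was not tested.

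The secreted class 3 semaphorins went in no common direction, 3 of 7 having a negative and 4 a positive fold change. SEMA3F, a repellent that acts through NRP2, was at 8.25 to 11.69 TPM in GF and 12.92 to 17.7 TPM in CG (log2 fold change -0.55, limma adjusted p = 0.11). SEMA3A, the NRP1 ligand, was at 1.19, 5.03 and 7.45 TPM in GF and 5.84, 8.16 and 13.04 TPM in CG, with GF replicate 1 far below all others and an overlap between the groups (log2 fold change -0.99, SE 0.51). SEMA3C and SEMA3D were slightly higher in every GF pig. SEMA3C had 11.29, 15.94 and 10.45 TPM in GF and 8.97 to 10.05 TPM in CG (log2 fold change 0.35, limma adjusted p = 0.26), and SEMA3D had 10.97 to 15.69 TPM in GF and 10.46 to 10.95 TPM in CG. SEMA3E, which acts directly on plexin-D1, had the largest relative spread in GF pigs, with 31.75 TPM in GF replicate 1 against 4.53 and 4.94 TPM in the other GF pigs and 5.37 to 8.37 TPM in CG. Its fold change of 0.45 on the log2 scale was -0.39 without GF replicate 1. SEMA7A, a membrane-anchored semaphorin singled out after its values were seen, behaved likewise, with 104.74 TPM in that library against 40.92 and 28.54 TPM in the other GF pigs and 32.73 to 33.8 TPM in CG. In both genes a single library, the one with the fewest hypothalamic transcripts, set the GF mean.

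None of the semaphorins of classes 5 and 6 passed. SEMA5A and SEMA5B, which carry thrombospondin repeats, had log2 fold changes of 0.07 and 0.13. Of the class 6 genes, which act as membrane ligands for plexin-A receptors, SEMA6C had 5.41, 9.37 and 9.53 TPM in GF and 14.5, 16.47 and 13.49 TPM in CG (log2 fold change -0.83, SE 0.23, limma adjusted p = 0.071). SEMA6D was among the steadiest members, at 57.81 to 64.32 TPM in GF and 67.62 to 75.38 TPM in CG. SEMA6A and SEMA6B overlapped, as did SEMA3B, SEMA3G, SEMA4A and SEMA4G of the other classes.

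Among the plexins, PLXNA4 fell. PLXNA4 (ENSSSCG00000021562, chromosome 18, 16475250 to 16977821), the receptor that transmits class 3 and class 6 semaphorin signals in many sensory and brain axons, was at 26.09, 28.86 and 30.56 TPM in GF and 53.71, 58.49 and 48.33 TPM in CG. Both groups were tight, with means of 28.5 ± 2.26 and 53.5 ± 5.08 TPM (SD, n = 3 each), 1.88 times higher in CG. The log2 fold change was -0.88 (SE 0.13, limma adjusted p = 0.0293), the smallest standard error among the 7 genes that fell. It was -0.64 after centring (adjusted p = 0.049), and with a library other than GF replicate 2 left out the adjusted p was 0.055 to 0.15.

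The other plexin-A receptors did not pass. PLXNA1 had 45.17, 32.52 and 46.37 TPM in GF and 56.95, 56.0 and 59.03 TPM in CG (log2 fold change -0.48, limma adjusted p = 0.099). PLXNA3 had 8.63 to 12.68 TPM in GF and 14.48 to 16.27 TPM in CG (log2 fold change -0.49, limma adjusted p = 0.12), again without overlap. PLXNA2 went the other way in part, at 50.42, 18.6 and 34.04 TPM in GF and 27.54 to 29.66 TPM in CG. PLXNB1, the SEMA4D receptor, had the highest mean of the plexins over all 6 libraries through GF replicate 2, while PLXNA1 was higher in the other 5, and its groups overlapped, with 40.81, 56.98 and 41.0 TPM in GF and 51.77 to 53.66 TPM in CG. Likewise PLXNC1, the SEMA7A receptor, showed no group difference (log2 fold change 0.01, SE 0.34), with GF replicate 3 at 69.37 TPM and all other libraries at 28.75 to 44.88 TPM.

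Both neuropilins had lower means in GF pigs. NRP2, the co-receptor for SEMA3F and the highest neuropilin, was at 49.45, 42.77 and 51.86 TPM in GF and 81.59, 80.13 and 63.51 TPM in CG. The groups did not overlap, yet the test was narrowly missed (log2 fold change -0.63, SE 0.15, limma adjusted p = 0.052). NRP1, the co-receptor for SEMA3A and VEGF, was at 40.13, 25.43 and 29.9 TPM in GF and 44.66, 36.56 and 50.87 TPM in CG (log2 fold change -0.47, SE 0.20, limma adjusted p = 0.17), with GF replicate 1 inside the CG range.

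Of the 7 ephrins 6 were tested, and EFNB1 fell while the other 5 did not pass. EFNB1 (ENSSSCG00000032728, chromosome X, 54947339 to 54961403), a transmembrane ligand for EphB receptors, was at 6.51, 8.48 and 7.18 TPM in GF and at 12.65, 13.84 and 16.46 TPM in CG. The means were 7.39 ± 1.0 and 14.3 ± 1.95 TPM (SD, n = 3 each), 1.94 times higher in CG, with no overlap. The log2 fold change was -0.87 (SE 0.18, limma adjusted p = 0.0456), the centred value -0.62 (adjusted p = 0.10), and the adjusted p with a library other than GF replicate 2 left out 0.088 to 0.16.

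EFNB3, the most abundant ephrin and a midline barrier for corticospinal axons in mice, had the most negative fold change of any member and did not pass. It was at 12.1, 60.61 and 70.25 TPM in GF and 105.76, 142.37 and 117.22 TPM in CG, a mean of 47.6 ± 31.2 against 121.8 ± 18.7 TPM (SD, n = 3 each). GF replicate 1 was far below the other GF pigs, and the error was wide (log2 fold change -1.66, SE 0.59, limma adjusted p = 0.11), and without that library the fold change was -0.88 and the adjusted p 0.078. EFNB2, the ephrin-B of arteries and synapses, was at 7.72, 13.06 and 11.49 TPM in GF and 17.78, 17.25 and 28.23 TPM in CG (log2 fold change -0.90, SE 0.26, limma adjusted p = 0.074). Together the ephrin-B genes, 3 of 3 without overlap (beside 32.8% of all tested genes with all GF below all CG), summed to 26.33, 82.15 and 88.92 TPM in GF and 136.19 to 173.46 TPM in CG.

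**Figure D3:**
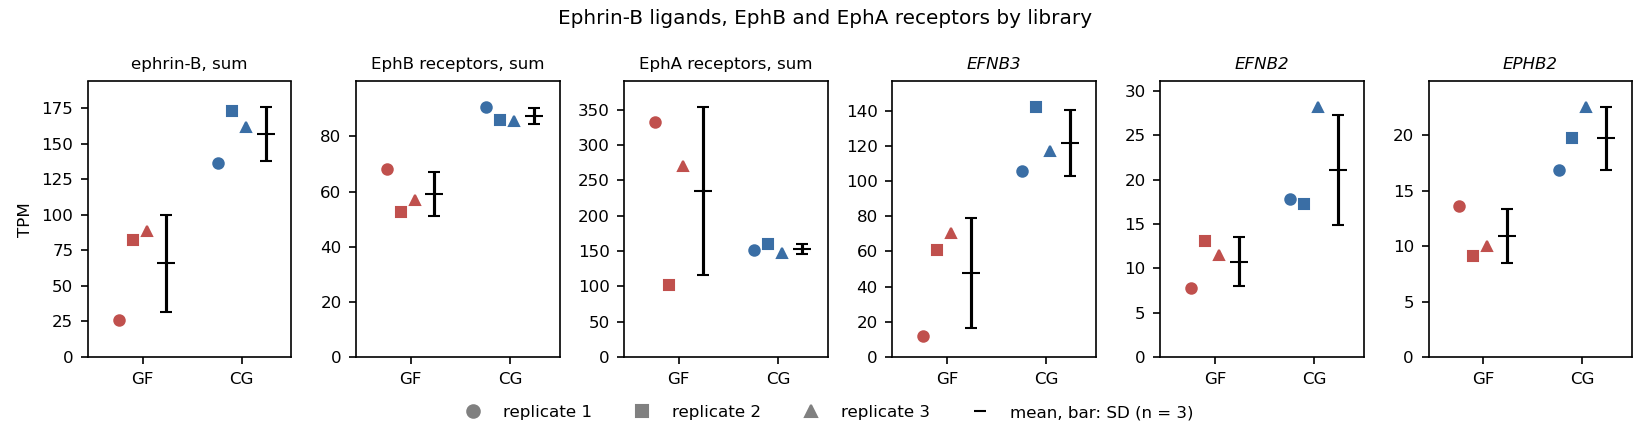
TPM (vertical axes, each from 0) of summed ephrin-B ligands, EphB receptors and EphA receptors and of EFNB3, EFNB2 and EPHB2 in each GF (red) and CG (blue) pig, with the mean and SD in black. Ephrin-B and EphB sums are lower in every GF pig than in every CG pig, while the EphA sum spans 101.61 to 332.54 TPM in GF and 146.73 to 160.32 TPM in CG.

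Of the ephrin-A ligands, which are tethered by a lipid anchor, EFNA5 had 33.5, 17.79 and 24.91 TPM in GF and 36.7, 46.53 and 48.51 TPM in CG (log2 fold change -0.80, SE 0.24, limma adjusted p = 0.078). EFNA2 was at 5.32 to 6.93 TPM in GF and 7.31 to 8.94 TPM in CG, and EFNA1 overlapped. A gene that the reference names EFNA3 had no symbol in the table and is not among the 67, and it was at 31.9, 15.27 and 21.7 TPM in GF and 18.63 to 21.86 TPM in CG.

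None of the 13 tested Eph receptors passed, 5 of them EphB and 8 EphA receptors, and the difference between these classes was not tested. EPHB2, a receptor that clusters NMDA receptors at synapses, was at 13.62, 9.06 and 10.05 TPM in GF and 16.88, 19.71 and 22.58 TPM in CG (log2 fold change -0.81, SE 0.20, limma adjusted p = 0.056). EPHB1 was at 25.9, 27.64 and 20.76 TPM in GF and 52.12, 45.18 and 34.09 TPM in CG (log2 fold change -0.79, SE 0.19, limma adjusted p = 0.056). Like these, EPHB4, a receptor of veins, had no overlap, at 3.6 to 4.13 TPM in GF and 5.4 to 6.41 TPM in CG. The other EphB receptors overlapped, EPHB3 with a log2 fold change of -0.39 and EPHB6 with 0.37. All GF pigs were below all CG pigs for 3 of 5 EphB and 0 of 8 EphA receptors, beside 32.8% of all tested genes. Of the 8 EphA fold changes 2 were negative, beside 72.7% of all tested genes, and those of EPHA7 (0.00), EPHA8 (0.02) and EPHA10 (0.02) turned sign in 4 or 5 of 13 alternatives. EPHA8 was the member with the second largest relative spread in GF pigs, at 9.12, 0.87 and 2.71 TPM against 2.48 to 4.28 TPM in CG, and its fold change of 0.02 was -0.63 without GF replicate 1. The part of vessel cells in EPHB4, EFNB2 and ROBO4 was not tested, and the 6 endothelial genes summed to 125.6 to 146.5 TPM in GF and 153.8 to 184.2 TPM in CG. Of these 6, 4 were lower in every GF pig, whereas FLT1 went the other way (35.01 to 44.29 TPM in GF, 32.11 to 35.01 TPM in CG). PECAM1 overlapped, with 51.33 TPM in CG replicate 3 and 17.48 to 21.62 TPM elsewhere.

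The remaining members did not pass. PLXND1, the SEMA3E receptor, had no overlap, at 10.58 to 14.32 TPM in GF and 14.5 to 16.78 TPM in CG, while EPHA2, EPHA3, EPHA7, EPHA10 and EPHB3 overlapped. Several members, picked out after their values were seen, were highest in CG replicate 3. EPHA2 was at 12.71 TPM there and 1.97 to 5.1 TPM elsewhere, EPHB3 at 13.35 TPM against 6.08 to 7.48 TPM, and SEMA3B at 6.22 TPM against 1.96 to 3.54 TPM. EFNB2 and ROBO4, given above, were highest in that library too, as were SLIT2 and EFNB1, which fell, and further members. How often this held over all tested genes was not counted. The pituitary genes peaked in the same library, and their part in these values was not tested.

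A group of 11 members followed GF replicates 1 and 3, being higher in these than in the other 4 libraries. They were singled out after their values were seen and comprised EPHA4, EPHA5, EPHA6, EPHA7, EPHB6, NTN4, PLXNA2, ROBO2, SEMA3D, SEMA4G and SEMA6B. Among all tested genes 9.56% had this order, against 17.2% of the members. EPHA4, a receptor for both ephrin classes and the Eph receptor with the highest mean over the 6 libraries, was at 219.22, 45.74 and 146.69 TPM in GF and 63.99 to 76.24 TPM in CG. GF replicate 2 was thus the lowest library and the 2 others the highest (log2 fold change 0.69, SE 0.51, limma adjusted p = 0.39).

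EPHA6 was at 27.07, 10.54 and 30.81 TPM in GF and 13.2 to 17.85 TPM in CG. EPHB6, an Eph receptor without kinase activity, was at 17.63, 5.15 and 16.39 TPM in GF and 7.94 to 9.95 TPM in CG. ROBO2 was at 33.88, 13.43 and 41.34 TPM in GF and 17.32 to 25.47 TPM in CG. In each gene GF replicate 2 was the lowest of the 6 libraries. Without it, EPHA4 rose with a log2 fold change of 1.34 (limma adjusted p = 0.024), EPHB6 with 0.89 (adjusted p = 0.041) and EPHA6 with 0.87 (adjusted p = 0.041), while ROBO2 reached 0.85 (adjusted p = 0.052). In that fit 2.85% of all tested genes rose and 6.28% fell. Because these members were chosen for high values in GF replicates 1 and 3, their positive direction in that fit was fixed by the choice. The adjusted p-values are therefore no independent support for a rise. The thalamus genes, 8 of 9 with the same order of libraries and 0 of 9 called, moved with these members, and their part in the Eph and Robo values was not tested.

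**Figure D4:**
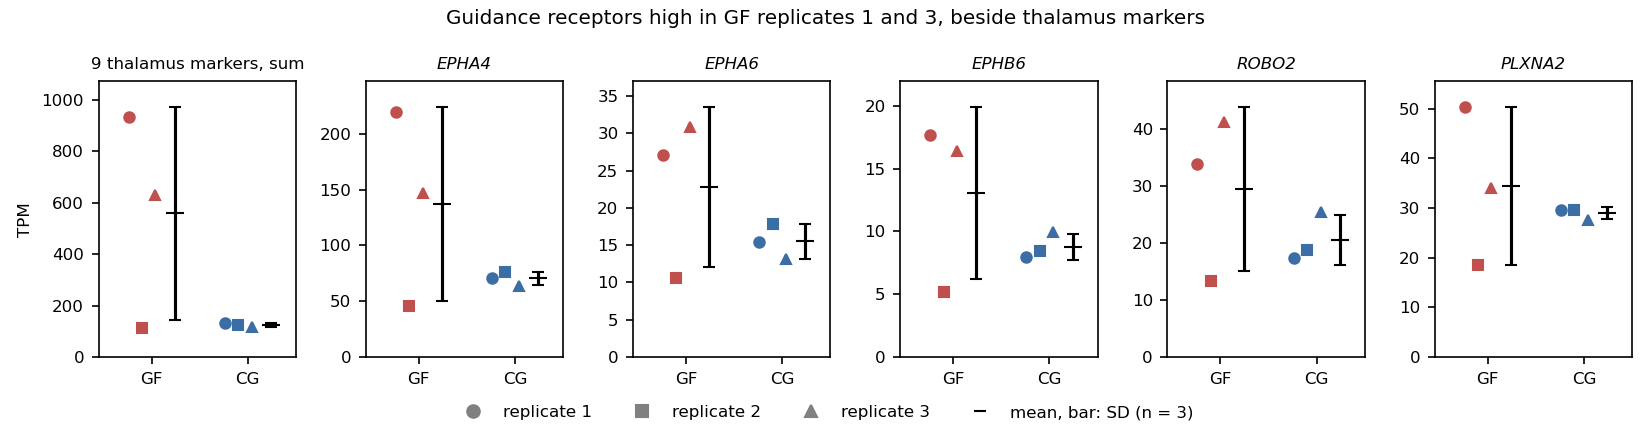
TPM (vertical axes, each from 0) of 9 summed thalamus genes and of EPHA4, EPHA6, EPHB6, ROBO2 and PLXNA2 in each GF (red) and CG (blue) pig, with the mean and SD in black. In every panel GF replicates 1 and 3 are the 2 highest libraries and GF replicate 2 is the lowest, as for EPHA4 with 219.22, 146.69 and 45.74 TPM.

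At the level of annotated transcripts, some passed where their gene did not. Of the 171 member transcripts, 132 were tested, 11 fell and 0 rose, that is 8.33%, beside 5.25% of all 27945 tested transcripts that fell and 2.29% that rose. They belonged to 8 genes, 4 of which had not passed as genes (EPHA5, EFNA5, NRP1 and NRP2). Conversely, only 4 of the 7 genes that fell had a called transcript, and UNC5A, EFNB1 and SEMA4F had none. In UNC5A, ENSSSCT00000015346 was lower in every GF pig without passing (log2 fold change -2.01, limma adjusted p = 0.11). The other UNC5A transcript, ENSSSCT00000046300, overlapped between the groups (log2 fold change -0.06). Values of overlapping transcripts depend on how the authors' software shared reads among them, and 21 members had a single transcript in the table.

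The smallest adjusted p was in EPHA5, an ephrin-A receptor. Its transcript ENSSSCT00000027663 was listed at 0.11, 0.05 and 0 TPM in GF and at 4.56, 10.79 and 9.66 TPM in CG. It was near 0 in every GF pig and made up 15.4, 33.2 and 30.8% of EPHA5 in the CG pigs. With no GF pig at 1 TPM, it met the filter only through the CG pigs, and its adjusted p is to be read with that limit. The log2 fold change was -3.08 (SE 0.33, limma adjusted p = 0.0059), and it passed in 12 of 13 alternatives, the exception being the fit without GF replicate 1 and CG replicate 3 together (adjusted p = 0.072). The gene as a whole was at 38.26, 26.26 and 57.29 TPM in GF and 29.61 to 32.49 TPM in CG, a log2 fold change of 0.30 (limma adjusted p = 0.46). Another transcript, ENSSSCT00000087832, was higher in every GF pig, at 17.33, 11.24 and 23.64 TPM against 6.38 to 9.07 TPM, and did not pass (log2 fold change 1.03, limma adjusted p = 0.069).

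EFNA5, a ligand of EPHA5, also differed by transcript. ENSSSCT00000054006 was at 7.51, 5.3 and 7.45 TPM in GF and 18.08, 20.26 and 20.96 TPM in CG (log2 fold change -1.43, SE 0.19, limma adjusted p = 0.012), whereas the other EFNA5 transcript, ENSSSCT00000064949, overlapped at 12.49 to 25.99 and 18.62 to 27.55 TPM. The first made up 27.4 ± 4.29% of EFNA5 in GF and 45.3 ± 3.4% in CG pigs (SD, n = 3 each). In an exact permutation test, two-sided, the shares of these transcripts of EPHA5, EFNA5, NRP1 and NRP2 each gave p = 0.1, the smallest that 3 against 3 pigs allows, and 0.1 adjusted over the 4 tests. These 4 transcripts were chosen because they had been called lower in the same pigs while their gene was not. The share tests are therefore no independent support. The EFNA5 transcript passed in all 6 fits that left out 1 library (adjusted p = 0.022 to 0.049) and in 10 of 13 alternatives.

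**Figure D5:**
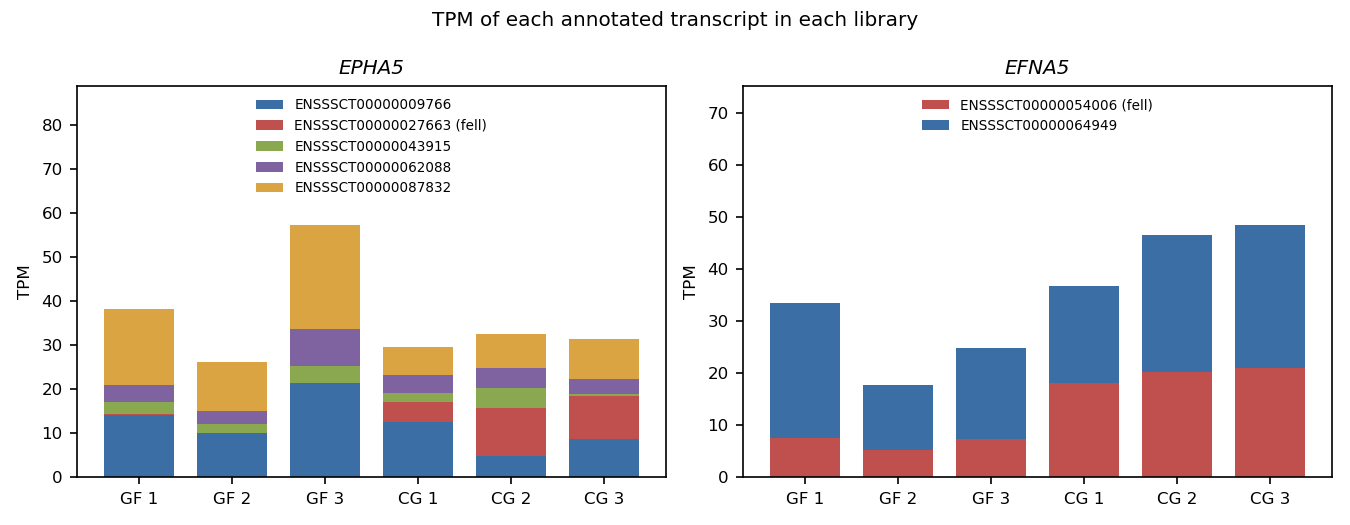
TPM of each annotated transcript of EPHA5 (left) and EFNA5 (right), stacked to the gene total for each of the 6 pigs, with the transcript that fell in red. In EPHA5 the red part is at most 0.11 TPM in GF and 4.56 to 10.79 TPM in CG, and in EFNA5 it is 5.3 to 7.51 against 18.08 to 20.96 TPM.

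In PLXNA4 and SLIT2, a minor transcript carried a larger fold change than the major one. PLXNA4 transcript ENSSSCT00000040286 was at 0.96, 0.98 and 0.7 TPM in GF and 4.49, 5.02 and 4.58 TPM in CG (log2 fold change -1.60, limma adjusted p = 0.012). This transcript was under 1 TPM in every GF pig and met the filter only through the CG pigs. The major one, ENSSSCT00000047876, had a log2 fold change of -0.79 (limma adjusted p = 0.028). SLIT2 transcript ENSSSCT00000054198 was at 2.54, 2.25 and 0.96 TPM in GF and 10.15, 8.93 and 14.78 TPM in CG (log2 fold change -2.09, limma adjusted p = 0.017), and the major one, ENSSSCT00000086395, had -0.87 (limma adjusted p = 0.042). In both genes the major and the named minor transcript thus fell together. A further minor SLIT2 transcript, ENSSSCT00000009572, did not pass (log2 fold change -0.75, limma adjusted p = 0.12). Without CG replicate 1 the named minor SLIT2 transcript had a limma adjusted p of 0.053, and without GF replicate 3 that of PLXNA4 was 0.054. The major PLXNA4 transcript did not pass without CG replicate 1, CG replicate 2, GF replicate 1 or GF replicate 3 (adjusted p = 0.069 to 0.10), and the major SLIT2 transcript did not pass without any 1 of the 6 libraries (adjusted p = 0.066 to 0.13).

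In UNC5D, ENSSSCT00000017238 (log2 fold change -1.60, limma adjusted p = 0.024) and ENSSSCT00000045285 (-1.30, limma adjusted p = 0.046) fell. Among the fits that left out 1 library, both passed only without GF replicate 2 (adjusted p = 0.020 and 0.035), and so did the SLIT1 transcript described next (adjusted p = 0.037). SLIT1 had nearly all its RNA in ENSSSCT00000011502 (log2 fold change -0.95, limma adjusted p = 0.0496), so transcript and gene gave the same values. NRP2 transcript ENSSSCT00000024105 was at 6.78, 7.13 and 10.58 TPM in GF and 24.46, 16.76 and 15.12 TPM in CG (log2 fold change -1.10, limma adjusted p = 0.047), and it passed in 0 of 13 alternatives. NRP1 transcript ENSSSCT00000012149 was listed at 0 in every GF pig and at 1.77, 4.81 and 1.52 TPM in CG (limma adjusted p = 0.033). This NRP1 transcript met the low-value filter only through the CG pigs. It passed in 4 of 13 alternatives, and its call was lost without that filter and after centring. Among the fits that left out 1 library, it was lost without CG replicate 1 (limma adjusted p = 0.067), GF replicate 1 (0.098), GF replicate 2 (0.062) or GF replicate 3 (0.095).

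Partners of these receptors were read from the same fit. The list held 112 co-receptors, adhesion partners and intracellular effectors, of which 105 were tested, 5 fell (4.76%) and 0 rose, and their log2 fold changes had a median of -0.15. Among all tested genes 4.93% fell and the median was -0.23, so the share of partners that fell was near the background. NGEF, an exchange factor bound by EphA receptors, was at 28.97, 31.36 and 28.35 TPM in GF and 56.95, 55.33 and 47.22 TPM in CG (log2 fold change -0.82, SE 0.13, limma adjusted p = 0.029). NTNG2, a membrane-anchored netrin-G that binds LRRC4 and not the netrin receptors, was at 4.44, 5.65 and 4.44 TPM in GF and 11.07, 10.16 and 13.18 TPM in CG (log2 fold change -1.09, SE 0.18, limma adjusted p = 0.032). Both were lower in every GF pig by a margin wider than the spread within either group. SIPA1L1, a spine protein downstream of EPHA4, fell with a log2 fold change of -0.87 (limma adjusted p = 0.040), as did the kinase PAK4 (-0.85, limma adjusted p = 0.045), named after its values were seen. Like the members, these genes did not pass without CG replicate 1, CG replicate 2, CG replicate 3, GF replicate 1 or GF replicate 3 (0 of 105 partners called in limma, 14 to 24 with an unadjusted p under 0.05), and after centring 0 passed with 19 at an unadjusted p under 0.05. Among all tested genes those leave-out fits called only 8 to 29 lower and 14 to 26 higher in GF.

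Of the Eph effectors 2 of 14 tested fell, and of the netrin and RGM partners 1 of 10. None of the 12 Slit and Robo effectors, 22 semaphorin effectors or 16 adhesion partners passed. NTNG1, the other netrin-G and a gene looked up for its similarity to NTNG2 after values were seen, had the order of the thalamus genes, at 221.21, 14.36 and 153.7 TPM in GF and 21.17 to 24.42 TPM in CG.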

How the data were processed

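The authors deposited TPM of annotated mRNA transcripts. Per the paper, reads from rRNA-depleted paired-end libraries were aligned with TopHat to Sscrofa11.1, assembled with Cufflinks and counted with HTSeq. The labels differ, naming fastp, HISAT, RSEM and a TruSeq stranded kit. The tool that shared reads between transcripts is therefore unsure. Columns named after the transplant are the CG pigs.

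TPM of all transcripts of a gene were summed. Tests used limma 3.58.1 in R 4.3.3 (limma-trend on log2(TPM + 1), at least 1 TPM in at least 3 libraries, Benjamini-Hochberg over all tested genes or transcripts, two-sided). The count model the study used needs counts and was not run. Tables were handled in pandas 2.3.3 and numpy 2.4.6 under Python 3.11.15, exact tests in scipy 1.17.1, and plots in matplotlib 3.10.9. The fit was tested on simulated data with a normal spread. It called 49 of 100 genes with a true log2 change of 1 and 79 of 100 with a change of 2. Not passing therefore does not show that a gene was unchanged.

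Positions come from the RefSeq annotation of Sscrofa11.1, matched by symbol for 67 of 67 genes. No sequences are shown. The members and lists were chosen with earlier results of these data known. Named are members that passed, members without overlap whose log2 fold change reached 1 in size, the highest member per family, the 2 with the largest relative spread in GF pigs, called transcripts and up to 4 called partners per direction. Some partner results that this rule covers are not reported here. Other members were added to account for each family, after their values were seen. Alternatives were a pseudocount of 0.1, no filter, other scalings, a fold threshold, leaving out libraries and the replicate number as a block. lncRNA and small RNA values were not used here.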

Additional observations from a re-analysis of the deposited data

How the results depend on the processing

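The direction of the 7 member genes that fell held in all 13 alternatives, but the calls did not, and the cause was not tested. Their groups did not overlap, so leaving out libraries could not turn the direction, and only the rescaled fits could. The 7 calls became 5 with a pseudocount of 0.1, 2 without the low-value filter, 2 with mitochondrial genes out of the scaling, 2 after centring each library on its median (in each of these 3 cases SLIT2 and PLXNA4) and 3 (SLIT2, UNC5A and UNC5D) when a log2 fold change of at least 1 was also required. With 1 library left out, 0 to 7 members fell and 0 to 3 rose, while 8 to 920 of all tested genes fell and 14 to 417 rose. With GF replicate 1 and CG replicate 3 left out together, and with CG replicates 1 and 2 left out together, 0 fell. With the replicate number as a block 0 member genes, 0 partners and 3 member transcripts fell. Samples with the same number did not deviate together (correlations of -0.0244, 0.0581 and -0.01) and share only a number. TPM keep no depth, so counting error could not be given.

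The median log2 fold change of the members was -0.22 with mitochondrial genes out of the scaling, -0.11 after centring, and -0.36 to -0.27 with 1 library left out, the latter without CG replicate 2. The 5 partner calls became 1 without the filter, 1 with mitochondrial genes out, 0 after centring, 1 with the fold threshold and 0 with either pair of libraries left out, and with 1 library left out 0 to 6 fell and 0 to 7 rose. The 11 transcript calls became 7 with the pseudocount of 0.1, 6 without the filter, 6 with mitochondrial genes out, 5 after centring with 1 that rose, 0 without GF replicate 1 and CG replicate 3, 1 without CG replicates 1 and 2, and 3 to 8 with 1 library left out, where 0 to 5 rose.

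Of the 64 tested members, 20 had the other sign in at least 1 alternative. Among the 51 genes and transcripts followed individually here, the fold changes of 7 genes turned sign, and in none was the cause tested. EPHA8 was at -0.11 with the pseudocount of 0.1, -0.70 without GF replicate 1 and CG replicate 3, and -0.63 to 0.59 with 1 library left out. UNC5B was at 0.06 with mitochondrial genes out, 0.17 after centring, 0.34 without CG replicates 1 and 2, and -0.27 to 0.23 with 1 library left out. ROBO1 was at 0.09 after centring, 0.01 without GF replicate 1 and CG replicate 3, and -0.28 to 0.01 with 1 library left out. SEMA4D was at 0.08 after centring, 0.10 without CG replicates 1 and 2, and -0.41 to 0.08 with 1 library left out. SEMA3E was at -0.43 without GF replicate 1 and CG replicate 3, and -0.39 to 0.89 with 1 library left out. PLXNB1 was at 0.04 after centring and NTN1 at 0.06 without CG replicates 1 and 2. Of 663 values of these 51 genes and transcripts over all alternatives, 438 kept direction and call status, 202 lost the call, 3 gained it and 20 reversed. The 438 include genes never called, which only stayed uncalled, so they do not measure how stable the calls were. All 202 losses fell on genes and transcripts called in the main fit. The 7 member genes that fell kept their call in only 1 to 5 of 13 alternatives each.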
